A study of Mus musculus with 2 samples.

Results

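The 38 genes described here encode components of T cell receptor (TCR) signalling. They were chosen by name, as the rows of the deposited gene table whose symbol is on a list of receptor chains, kinases, adaptors, effectors and inhibitors. All 38 were found among 55246 loci, each as 1 row, and all 38 had enough reads to be tested. The measurements are RNA sequencing read counts per gene from Treg cells, the suppressive CD4 lineage specified by the transcription factor Foxp3, of the colon lamina propria of female mice. There are 2 libraries, 1 labelled WT and 1 labelled Exon2KO, a Foxp3 allele without exon 2. The labels state no treatment for either group, and do not give the strain, the age of the mice, the sorting markers or whether mice were pooled. No spread between samples of a genotype can be had from 1 library each, so every interval covers counting error only, and reads counted without molecular identifiers may repeat a molecule.

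When the TCR meets peptide on an MHC molecule, the Src family kinase Lck, carried by the co-receptor CD4, phosphorylates the CD3 and zeta chains, which then bind the kinase Zap70. Zap70 phosphorylates the adaptors LAT and SLP-76, and these assemble phospholipase C-gamma, Vav1 and further adaptors into a platform from which calcium, Ras and NF-kB signals start. Kinases, phosphatases, ubiquitin ligases and diacylglycerol kinases restrain each step. Treg cells depend on TCR signals for their effector differentiation and for suppression, and many colonic Treg cells recognise antigens of the gut microbiota.

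Gene-assigned reads numbered 16281133 in WT and 15412425 in Exon2KO, and the 38 genes took 1.22% and 1.08% of them. Foxp3 itself, the targeted gene, had 6991 reads in WT and 20946 in Exon2KO (log2 ratio 1.56, 1.52 to 1.60), and this whole-gene count does not test the deletion. Ratios are Exon2KO over WT after TMM scaling (edgeR's trimmed mean of M-values), on the log2 scale with a prior count of 2, each with a 95% Clopper-Pearson interval. A gene was called when its exact binomial test on reads had an adjusted p-value below 0.05 and the libraries differed 2-fold or more. Such a call compares the reads of 2 libraries, not the genotypes. Over all 17363 genes tested, 7.2% were called higher and 6.61% lower at 2-fold. Each count of calls in a list below is to be read beside these shares. In bulk RNA, fewer cells of a type and less RNA per cell cannot be told apart. The constant genes of the alpha and beta receptor chains, Trac, Trbc1 and Trbc2, had log2 ratios of -0.44, -0.30 and -0.36 with 0 of 3 called. The 7 Treg markers summed to 15239 CPM (read counts normalised to the TMM-scaled library size) in WT and 15622 in Exon2KO, a sum in which single genes went opposite ways. Foxp3 was called higher and Ikzf2, Tnfrsf18 and Tnfrsf4 lower (log2 ratios -4.29, -1.59 and -1.37), while Ctla4 was at 5056 and 8270 CPM. Summed markers of other cells were 13.95 CPM in WT and 84.3 in Exon2KO for gamma-delta T cells (6 of 8 called higher, 1 lower), with Trdc, the delta constant gene, at 14 and 13 reads. They were 78.9 and 269 CPM for epithelial cells (8 of 11 called higher, Cdx2 and Fabp2 at 0 reads in WT) and 2870 and 4045 CPM for CD8 T and NK cells (1 of 8 tested called higher, 2 lower, Ncr1 at 0 in WT and Eomes at 0 in Exon2KO). Nearly all of the last sum was Gzmb, a granzyme that activated Treg cells also express (2772 and 3981 CPM), and the other 8 genes of that list summed to 98.3 CPM in WT and 64.1 in Exon2KO. B and plasma cells were at 8497 and 8042 CPM (1 of 8 tested called higher, 2 lower). Myeloid and mast cells were at 53.8 and 55.2 CPM (0 of 7 tested higher, 1 lower; Itgax at 0 in both, S100a8 at 0 in WT, Cpa3 at 0 in Exon2KO), and stromal and endothelial cells at 286 and 296 CPM (2 of 8 higher, Cdh5 at 0 in WT). Lck, Fyn, Cd2, Ptprc, Ptpn6 and other members are also expressed by CD8 T, NK or B cells, and the part of these cells in the ratios below was not tested.

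Most of the 38 genes were modestly lower in the Exon2KO library, and few differed by 2-fold. The log2 ratio was below 0 for 29 of the 38 genes, with a median of -0.35 and a range from -1.20 to 1.00. Medians of the marker lists were -0.35 for Treg and for tested myeloid and mast cell markers, -0.36 for the receptor constant genes, -0.39 for CD8 T and NK cell markers and -0.33 for B and plasma cell markers. They were 0.05 for stromal, 1.77 for gamma-delta and 2.37 for epithelial markers. The Treg median is the value of Il2ra alone, in a list from -4.29 to 1.56. The myeloid median is that of Fcgr3 alone, with 43 reads in WT and 34 in Exon2KO (-1.06 to 0.32). The summed CPM of both lists, given above, were slightly higher in Exon2KO. Over all 17363 genes tested the median was 0.0035 and 49.7% were below 0. Over the 4740 genes with at least 1000 reads, a depth that 33 of the 38 reach, the median was -0.04 and 56.2% were below 0. With TMM, the counting interval lay wholly below 0 for 27 members, wholly above 0 for 6, and spanned 0 for 5. Scaled to the CD3 chains, the intervals of Zap70, Cblb, Cbl, Itch, Cd3e and Sh2d2a also come out above 0, and fewer members lie below it. At 2-fold, 1 member was called higher (Malt1) and 2 lower (Cd5 and Sh2d1a). That is 7.89% of members, against 13.8% of all genes tested (7.2% higher and 6.61% lower) and 4.73% of genes with at least 1000 reads. At 1.5-fold, 2 members were called higher and 10 lower. The 10 are 26.3% of the list, while 10.6% of all genes tested were called lower and 10.5% higher. Among genes with at least 1000 reads, 7.85% were called lower and 3.97% higher at 1.5-fold, and 8 of the 33 members of that depth were called lower and 2 higher. Scaling by total counts moves every log2 ratio up by 0.106, and scaling to the summed reads of Cd3e, Cd3d and Cd3g moves it up by 0.152. At 1.5-fold, each of these scalings gave 6 members called lower and 3 higher, and Lcp2, Prkcq, Ptpn6 and Ubash3a were no longer called lower. Over all genes tested, 1489 were then called lower and 2289 higher by total counts, and 1386 and 2562 by scaling to the CD3 chains, against 1847 and 1828 with TMM. Scaling to the CD3 chains also splits all 2-fold calls into 1577 higher and 925 lower, against 1251 and 1148 with TMM.

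**Figure D1:**
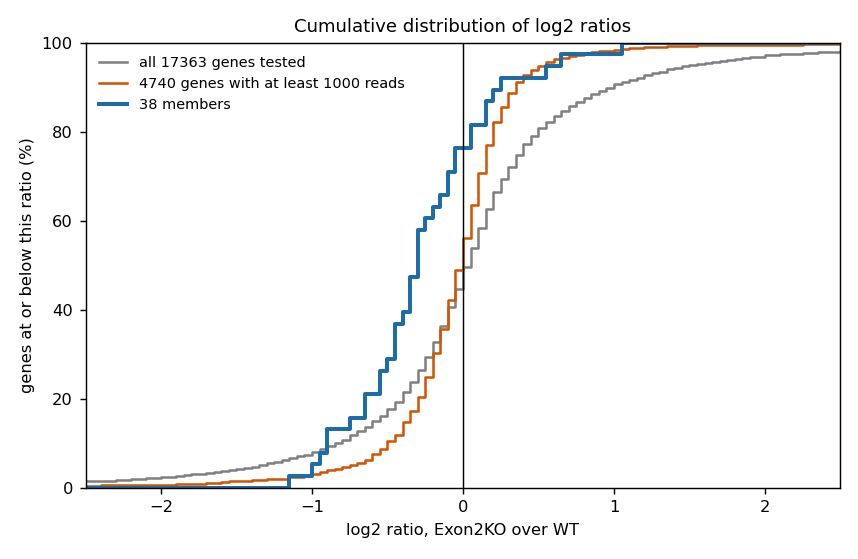
Cumulative share of genes (y axis, percent) at or below each log2 ratio of Exon2KO over WT (x axis) for the 38 members, all 17363 genes tested and the 4740 genes with at least 1000 reads. The members' curve lies to the left of both others through its middle part, with 76.3% of members below 0.

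In the authors' deposited table, 0 of the 38 genes had an adjusted p-value below 0.05, against 4.58% of the 22447 genes compared there. edgeR's exact test was also run with an assumed spread between samples (biological coefficient of variation, BCV). With a BCV of 0.2, 0 members passed an adjusted p of 0.05 and 5 an unadjusted p of 0.05. The deposited p-values lay within 5% of that test for 99.98% of 17363 genes, so it repeats the deposited result and is no separate evidence. With a BCV of 0.4, 0 members passed either threshold. The spread between samples was not measured, so the 3 calls of members at 2-fold are statements about these 2 libraries.

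**Figure D2:**
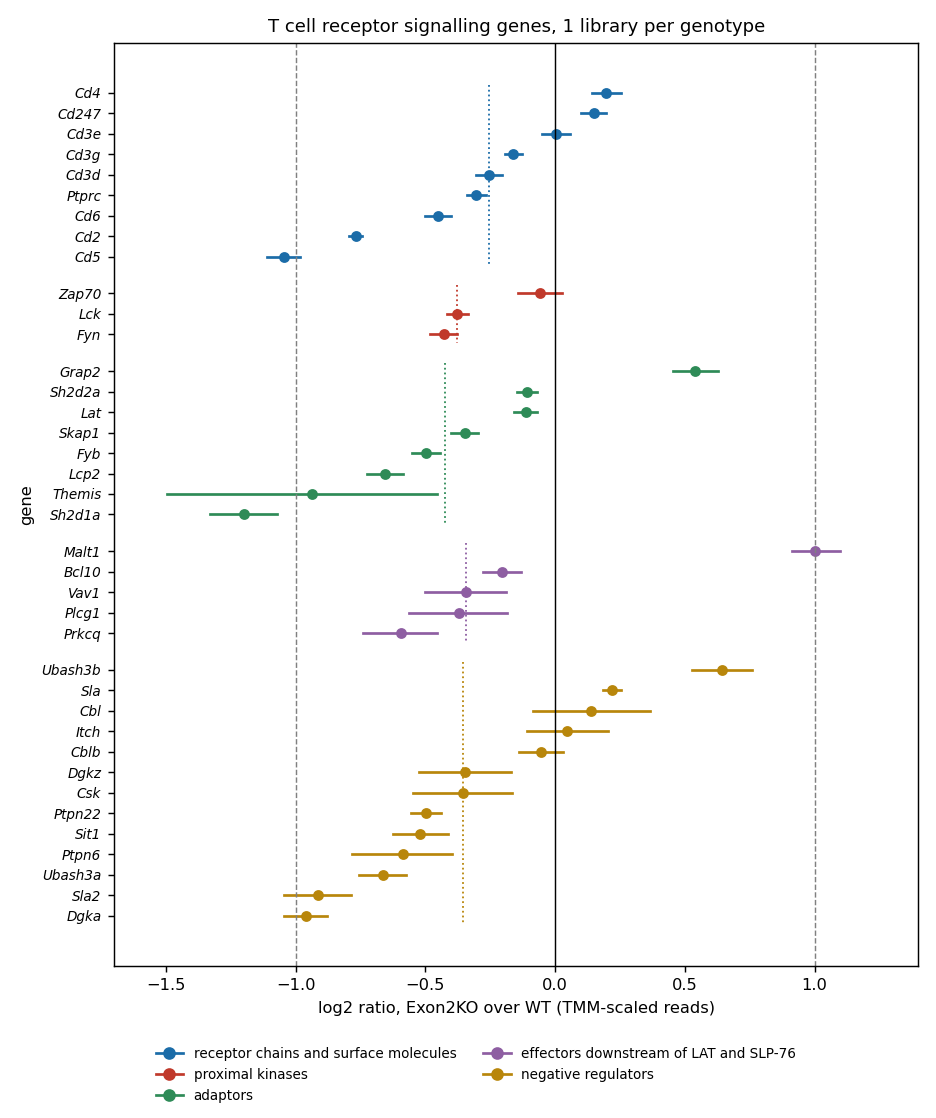
Log2 ratio of Exon2KO over WT (x axis, TMM-scaled reads) for each of the 38 genes (y axis), by role. Points are ratios, bars 95% counting intervals, dotted lines the median of each role, and dashed lines mark 2-fold. Malt1 lies at 1.00 and Sh2d1a at -1.20, with most genes between -0.60 and 0.20.

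Sequences just before the start site are shown for 3 genes: Cd5, the called surface gene, Grap2, an adaptor above 0 that was not called, and Trat1. Trat1 is an adaptor outside the 38 genes that had the largest difference in the wider pathway. Of the other called members, Sh2d1a had no RefSeq promoter match and the window of Malt1 is not shown. The sequences are 250 bases upstream of the RefSeq start (GRCm38.p6), written 5′ to 3′ on the gene's strand, with motif matches in capitals. The Cd5 window is chr19:10738975-10739224 (minus strand), the Grap2 window chr15:80623233-80623482 (plus strand, inside the longer Grap2 locus of the deposited table) and the Trat1 window chr16:48772063-48772312 (minus strand).
Cd5: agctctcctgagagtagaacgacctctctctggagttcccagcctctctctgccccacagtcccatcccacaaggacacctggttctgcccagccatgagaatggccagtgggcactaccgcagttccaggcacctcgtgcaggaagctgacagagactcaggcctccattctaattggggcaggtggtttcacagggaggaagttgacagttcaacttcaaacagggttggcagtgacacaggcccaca
Grap2: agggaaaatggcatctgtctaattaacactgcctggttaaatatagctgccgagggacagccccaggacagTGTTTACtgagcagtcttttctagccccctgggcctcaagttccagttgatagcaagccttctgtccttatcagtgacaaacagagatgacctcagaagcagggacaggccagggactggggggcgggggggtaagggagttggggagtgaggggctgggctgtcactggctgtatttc
Trat1: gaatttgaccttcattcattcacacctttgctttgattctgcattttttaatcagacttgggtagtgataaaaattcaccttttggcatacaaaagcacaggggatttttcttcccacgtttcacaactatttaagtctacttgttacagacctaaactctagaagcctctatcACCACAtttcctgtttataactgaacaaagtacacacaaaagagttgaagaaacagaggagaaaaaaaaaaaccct
The letters searched on both strands were TGTTTAC for forkhead factors, the family of Foxp3, CGGAAG for ETS factors, TGTGGT for RUNX factors and AGATAA for GATA factors, and no 2 of these motifs overlap in the windows shown. Of 38 members, 29 matched the RefSeq promoter table, and a gene counted when any of its windows held the letters. The forkhead letters were in 1 of the 29, Grap2, 179 bases before its start, against 3.54% of 27025 genes. Those for ETS factors were in 3 (Bcl10, Ptpn6 and Dgka) against 15.3% of genes. The RUNX letters were in 4 (Lck, Zap70, Ptpn22 and Sla2) against 15.9%, and also in the Trat1 window, on the strand opposite to the gene and so printed there as ACCACA, 76 bases before the start. The GATA letters were in 5 (Cd3g, Ptprc, Lcp2, Fyb and Ubash3b) against 11.4%. The Cd5 window held none of the 4. A match describes letters in a window and not a bound site, and a window without one is no evidence about a factor.

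The 3 CD3 chains and the zeta chain each differed by less than 1.2-fold between the libraries, while Trac, Trbc1 and Trbc2 were lower in Exon2KO by the values given above. Among the other surface genes, Cd5 was called lower at 2-fold, and Cd2 passed the 1.5-fold threshold only. Cd3e, which pairs with the delta and gamma chains in the receptor complex, had 5154 reads in WT and 5262 in Exon2KO, with the log2 ratio at 0.00 (-0.05 to 0.06). Cd3d had 7093 and 6056 reads (-0.25, -0.30 to -0.21) and Cd3g 16671 and 15187 (-0.16, -0.19 to -0.13). Cd247, the zeta chain with the most signalling motifs, had 6643 and 7502 reads (0.15, 0.10 to 0.20). Per gene length, Cd3g (323 FPKM in WT, 292 in Exon2KO) and Cd3d (248 and 209.7) stood above Cd3e (80.1 and 81.1) and Cd247 (79.0 and 88.5) in both libraries. Opposite-strand exons of Pou2f1 (374 and 411 reads) cover 56.4% of the exon bases of Cd247, and the use of strand in counting is not given in the sources used here. Cd4, the co-receptor that binds MHC class II and carries Lck, had 4593 and 5367 reads, a ratio of 0.20 (0.14 to 0.26) in the direction opposite to most of the list.

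Cd5, an inhibitory receptor whose surface level is known to follow the strength of TCR signals (ENSMUSG00000024669, chromosome 19, 10718143 to 10738974, minus strand, GRCm38), had 5894 reads in WT and 2908 in Exon2KO, or 181 and 88.3 FPKM. It was 2.06-fold lower in Exon2KO, with a log2 ratio of -1.05 (-1.11 to -0.98), and was called. By total counts or by scaling to the CD3 chains the ratio was -0.94 and -0.89, short of 2-fold. The authors' deposited table gives it an adjusted p-value of 0.157. Cd6, its neighbouring paralog, had 7663 and 5713 reads (-0.45, -0.50 to -0.40). Cd2, an adhesion and co-stimulatory receptor for CD48, was the member with the highest level per gene length in both libraries, at 1194 FPKM in WT and 708 in Exon2KO. Its 32787 and 19603 reads gave a ratio of -0.77 (-0.79 to -0.74), a called difference at 1.5-fold. Ptprc encodes CD45, the phosphatase that keeps Lck primed and is present on all leukocytes. It had 12969 and 10700 reads (-0.30, -0.34 to -0.27). For the 9 surface genes the median was -0.25, with 0 called higher and 1 lower at 2-fold (7.2% and 6.61% of all genes tested).

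Of the 3 proximal kinases 0 were called at 2-fold, against 13.8% of all genes tested, a list too short to read that count. Lck had 11247 reads in WT and 8826 in Exon2KO (-0.38, -0.42 to -0.34), and Fyn, the second Src kinase of T cells, 6526 and 4934 (-0.43, -0.48 to -0.38). The receptor constant genes given above, with ratios from -0.44 to -0.30, span both values. Zap70, the kinase that docks on phosphorylated CD3 chains, had 2331 and 2282 reads. Its interval with TMM included 0 (-0.06, -0.14 to 0.03), and its sign depended on the scaling, at 0.048 by total counts (-0.035 to 0.13) and 0.095 by scaling to the CD3 chains (0.011 to 0.18). Per gene length Lck was at 243 and 189 FPKM, Fyn at 94.8 and 71.1 and Zap70 at 49.4 and 47.9, the same order in both libraries.

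**Figure D3:**
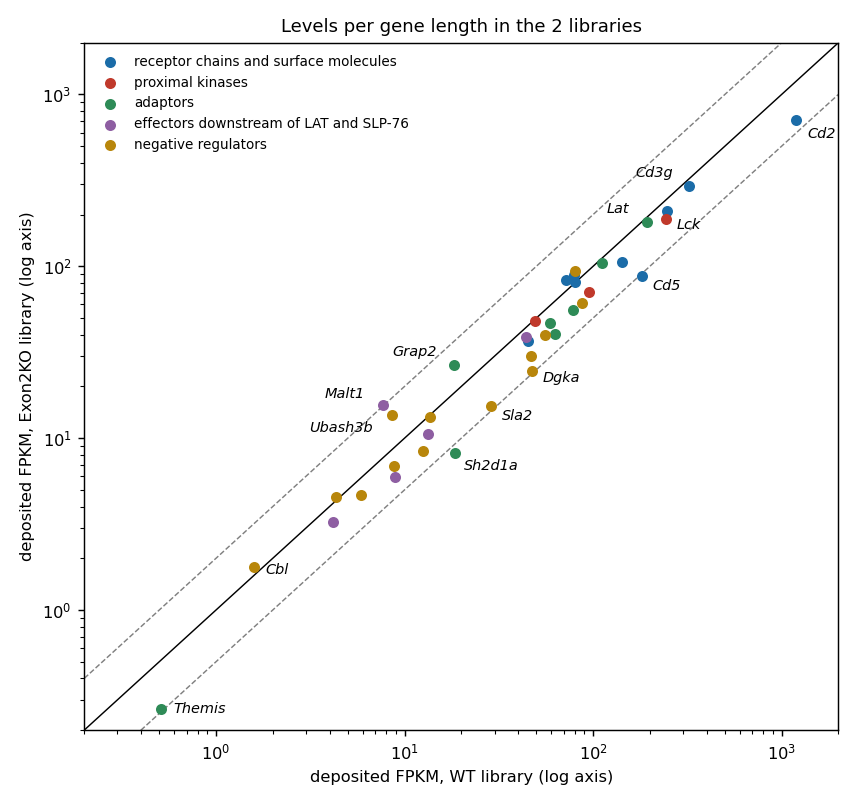
Deposited FPKM (reads per gene length and library size) in the WT library (x axis) against the Exon2KO library (y axis), both on log axes, for the 38 genes by role. The solid line marks equality and the dashed lines 2-fold. Cd2 is highest in both libraries and Themis lowest, at 0.510 and 0.264 FPKM.

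Among the 8 adaptors, the sign differed between partners of one complex. Lat, the membrane scaffold that Zap70 phosphorylates, had 8409 and 7924 reads (-0.11, -0.16 to -0.07), which became 0.040 when scaled to the CD3 chains. Lcp2, which encodes SLP-76, had 4407 reads in WT and 2852 in Exon2KO (-0.65, -0.72 to -0.59), while Grap2, which encodes Gads, the linker that joins SLP-76 to LAT, had 1796 and 2662 (0.54, 0.45 to 0.63). With TMM scaling Grap2 was the only adaptor above 0, whereas Lat and Sh2d2a were above it too when scaled to the CD3 chains. Fyb, which encodes ADAP and connects SLP-76 to integrin activation, had 6635 and 4787 reads (-0.50, -0.55 to -0.44), and its partner Skap1 had 6969 and 5573 (-0.35, -0.40 to -0.30).

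Sh2d1a encodes SAP, the adaptor that links SLAM family receptors to Fyn (ENSMUSG00000005696, chromosome X, 42502453 to 42529330, plus strand). It had 1611 reads in WT and 714 in Exon2KO, or 18.6 and 8.15 FPKM, the lowest ratio of the 38 genes at -1.20 (-1.33 to -1.07). It was 2.29-fold lower and was called, and it kept its call under the 5 scalings tried. The authors' deposited table gives an adjusted p-value of 0.0775. Exons of Tenm1 on the opposite strand cover 26.6% of its exon bases, and Tenm1 had 0 reads in both libraries. Sh2d2a, which encodes the Lck-binding adaptor TSAd, had 10417 and 9840 reads (-0.11, -0.15 to -0.07, and 0.043 when scaled to the CD3 chains). Themis, known mainly for tuning TCR signals during thymic selection, was near the low end, with 94 and 49 reads (-0.94, -1.496 to -0.45). The median of the 8 adaptors was -0.42, with 0 called higher and 1 lower at 2-fold (7.2% and 6.61% of all genes tested).

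Downstream of LAT and SLP-76, Malt1 was above 0 and the 4 other effectors below it. Malt1 is the protease and scaffold that, with Bcl10, carries the signal to NF-kB. It had 1420 reads in WT and 2901 in Exon2KO, or 7.67 and 15.5 FPKM. The log2 ratio was 1.00 (0.91 to 1.10), 2.004-fold higher, so its call sits on the 2-fold threshold. The authors' deposited table gives an adjusted p-value of 0.189. Bcl10 had 3164 and 2799 reads (-0.20, -0.28 to -0.13). Prkcq encodes PKC-theta, a protein kinase C that links the receptor to NF-kB, and had 997 and 672 reads (-0.59, -0.74 to -0.45). Plcg1, the phospholipase that makes the second messengers for calcium and protein kinase C, had 519 and 408 (-0.37, -0.56 to -0.18). Vav1, a guanine nucleotide exchange factor that acts on the actin cytoskeleton, had 772 and 619 (-0.34, -0.50 to -0.19). Of the 5 effectors, 1 was called higher and 0 lower at 2-fold (7.2% and 6.61% of all genes tested), and the median was -0.34.

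The 13 negative regulators had a median of -0.36, close to the -0.34 of the other 25 members. At 2-fold 0 of the 13 were called, against 13.8% of all genes tested, a list too short to read that count. At 1.5-fold, Ubash3b was called higher and Dgka, Sla2, Ubash3a and Ptpn6 lower. Over all genes tested, 10.5% were called higher and 10.6% lower at that threshold. Ubash3a and Ptpn6 fell short of 1.5-fold by total counts (-0.56 and -0.48) and by scaling to the CD3 chains (-0.51 and -0.43), as did Ptpn6 with DESeq2 size factors (-0.57) and upper quartile factors (-0.58). Dgka, a kinase that removes diacylglycerol and so limits Ras activation, had 3553 reads in WT and 1858 in Exon2KO (-0.96, -1.04 to -0.88). Dgkz, of the same enzyme family, had 582 and 466 (-0.35, -0.53 to -0.17). Sla2, an adaptor that promotes removal of the receptor from the surface, had 1405 and 759 reads (-0.91, -1.04 to -0.79). Exons of Rab5if on the opposite strand (759 and 754 reads) cover 23.6% of its exon bases. Its relative Sla had 11631 and 13792 reads (0.22, 0.18 to 0.25).

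The phosphatases differed among themselves. Ubash3a, an atypical phosphatase of T cells, had 2461 and 1581 reads (-0.66, -0.76 to -0.57), and Ubash3b, which dephosphorylates Zap70, had 994 and 1583 (0.64, 0.53 to 0.76). Ptpn22, which acts on Lck and Zap70, had 5939 and 4285 (-0.50, -0.55 to -0.44). Ptpn6, which encodes SHP-1, had 555 and 376 (-0.59, -0.78 to -0.40). Csk, the kinase that places the inhibitory phosphate on Lck, had 518 and 412 (-0.36, -0.55 to -0.17), and Sit1, a transmembrane adaptor that recruits inhibitory proteins, had 1728 and 1228 (-0.52, -0.63 to -0.41). For the 3 ubiquitin ligases the intervals included 0 with TMM, while all 3 lay above 0 when scaled to the CD3 chains, as did that of Cbl by total counts. Cblb had 2262 and 2220 reads (-0.05, -0.14 to 0.03, and 0.052 by total counts and 0.10 by scaling to the CD3 chains), Cbl 311 and 349 (0.14, -0.09 to 0.36) and Itch 663 and 698 (0.05, -0.11 to 0.20).

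Comparing 2 genes within the same libraries needs no library scaling, and 9 pairs of related members were set side by side after their values were known. The difference of the log2 ratios within a pair is given with a 95% interval from the 4 read counts. Ubash3a and Ubash3b differed by -1.31 (-1.46 to -1.16), and the share of Ubash3b in the summed FPKM of the pair was 15.5% in WT and 31.3% in Exon2KO. Lcp2 and Grap2 differed by -1.20 (-1.31 to -1.09), and Grap2 was 22.5% of their summed FPKM in WT and 40.0% in Exon2KO. For Malt1 against Bcl10 the difference was 1.21 (1.09 to 1.32), and Malt1 was 14.9% and 28.7% of their sum. Sla and Sla2 differed by 1.13 (1.002 to 1.27), with Sla at 73.6% and 86.0% of the pair. Sh2d1a and Sh2d2a differed by -1.09 (-1.22 to -0.96). Smaller differences were found for Dgka against Dgkz (-0.61, -0.81 to -0.42) and Cd5 against Cd6 (-0.60, -0.68 to -0.51). The order of Cd5 and Cd6 per gene length was reversed between the libraries, with Cd5 at 55.9% of the pair in WT and 45.6% in Exon2KO. The intervals of Lck against Fyn (0.05, -0.01 to 0.12) and Cbl against Cblb (0.19, -0.04 to 0.43) include 0.

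**Figure D4:**
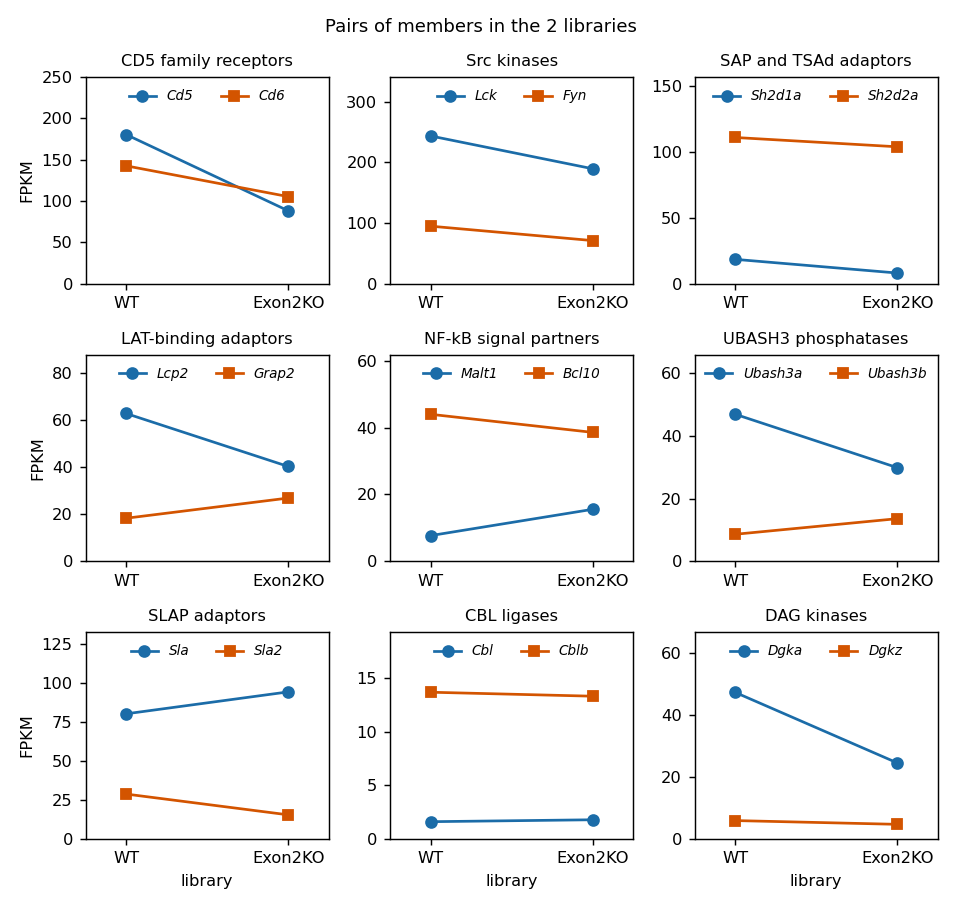
Deposited FPKM (y axis, linear from 0) of 9 pairs of members in the WT and Exon2KO libraries (x axis), 1 point per library. Lines join the values of 1 gene. Ubash3b, Grap2, Malt1 and Sla are higher in Exon2KO while the other gene of the pair is lower, and the lines of Cd5 and Cd6 cross.

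The rest of the pathway was read from 4 lists with 51 genes, fixed by role and with no gene of the 38. Of these, 50 could be tested, with 0 called higher and 4 lower at 2-fold, against 7.2% and 6.61% of all genes tested. The median was -0.21. Among these genes and the 38 members, the largest ratio in either direction was that of Trat1, which encodes TRIM, a transmembrane adaptor that associates with the TCR complex (ENSMUSG00000030775, chromosome 16, 48730774 to 48772021, minus strand). Trat1 had 2203 reads in WT and 136 in Exon2KO, or 29.9 and 1.83 FPKM, 16.3-fold lower with a log2 ratio of -4.02 (-4.31 to -3.79). Trat1 kept its lower call with an assumed BCV of 0.2 and of 0.4. Neither spread was measured, as each genotype has 1 library. Tespa1, which couples the receptor to calcium release, had 717 and 252 reads (-1.53, -1.75 to -1.33). Nck2, an adaptor that links SLP-76 to actin, had 390 and 151 (-1.38, -1.68 to -1.12), while its paralog Nck1 had 837 and 868 (0.03, -0.11 to 0.16). Pag1, the membrane adaptor that brings Csk to Lck, had 357 and 179 (-1.01, -1.29 to -0.76), and fell short of 2-fold by total counts (-0.91) and by scaling to the CD3 chains (-0.86).

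The other named genes of these lists did not reach 2-fold. The Tec family kinases Txk and Tec, which act on phospholipase C-gamma in lymphocytes, were higher in Exon2KO, Txk at 0.51 (0.40 to 0.61) and Tec at 0.68 (0.48 to 0.88). Rasgrp1, the exchange factor that starts the Ras branch, had 1904 and 2053 (0.08, -0.01 to 0.17). The 11 calcium and calcineurin genes had a median of -0.14 and the 10 genes of the Ras and NF-kB branches one of 0.05, with 0 called in either list at 2-fold or at 1.5-fold. Both lists are too short to read that count, beside 13.8% of all genes tested called at 2-fold. The 15 genes of the Tec kinase and nucleation list had a median of -0.38 with 3 called lower, and the 14 tested further inhibitors one of -0.23 with 1 called lower. Of all genes tested, 6.61% were called lower.

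**Figure D5:**
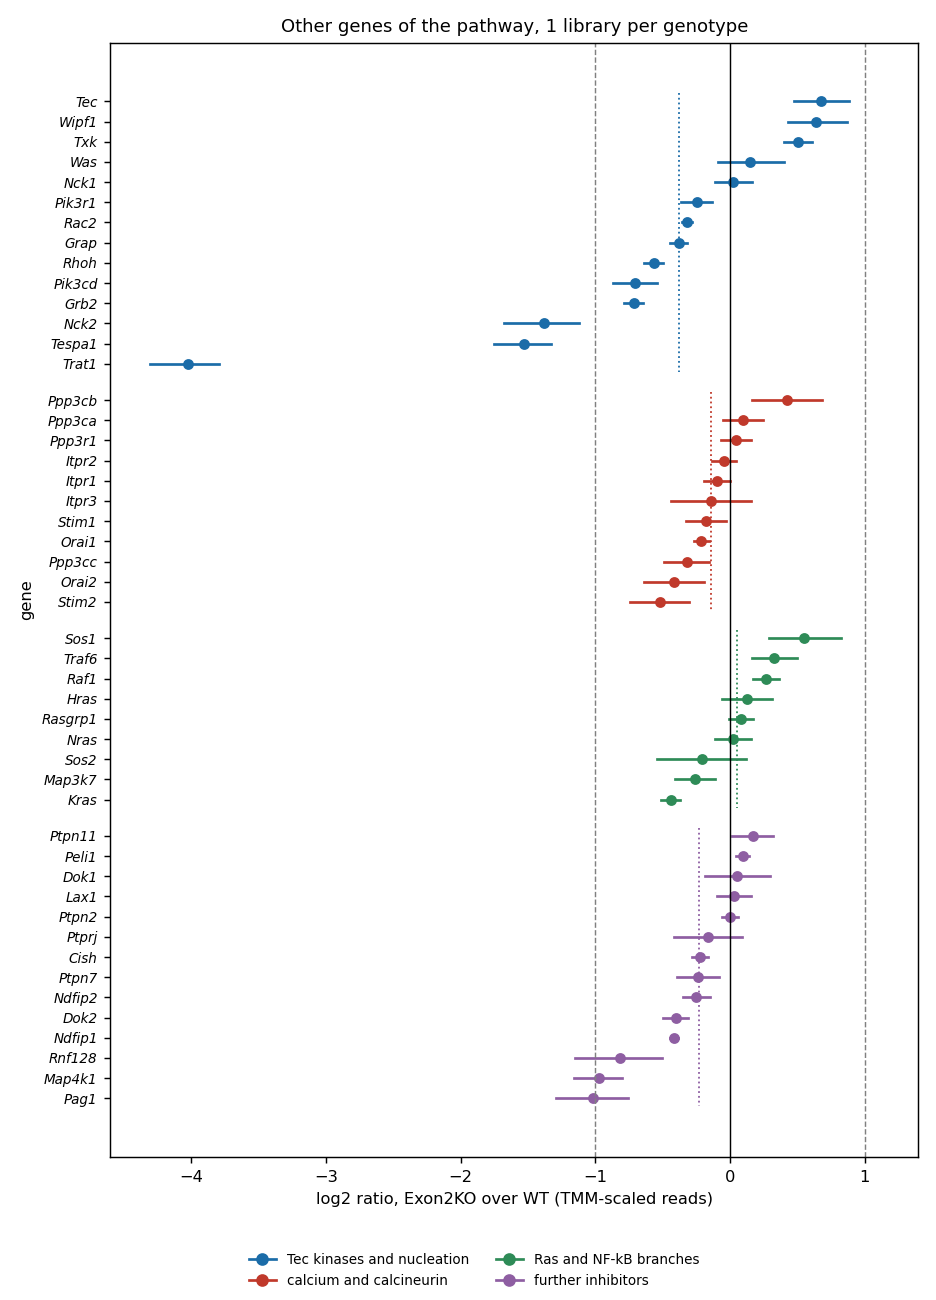
Log2 ratio of Exon2KO over WT (x axis) for 48 of the 50 tested genes of 4 further lists of the pathway (y axis), with 95% counting intervals. Dotted lines are medians over all tested genes of a list and dashed lines mark 2-fold. Trat1 lies at -4.02, apart from all others, and the calcium and Ras lists lie within 2-fold.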

How the data were processed

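The authors deposited 1 table with raw read counts per gene, FPKM, a scaled count signal, and a log2 fold change and p-value per gene for 1 WT and 1 Exon2KO library. Per the labels' protocols, 1 µg of RNA per sample entered an NEBNext Ultra preparation. The submitters' processing notes list HISAT2 2.0.5, StringTie 1.3.3b, featureCounts 1.5.0-p3, DESeq2 1.16.1 and build mm10, without their roles. The deposited p-values lay within 5% of edgeR's exact test with an assumed BCV of 0.2 for 99.98% of 17363 genes. The scaled signal was not used. Of the 38 members, 35 have identical coordinates in GENCODE M21 (GRCm38).

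From the counts, library sizes were scaled by TMM in edgeR 4.0.16 (R 4.3.3; factors 0.964 and 1.04). edgeR's quasi-likelihood test needs replicates, so genes whose 2 counts summed to 10 reads or more were compared by a 2-sided exact binomial test with Benjamini-Hochberg adjustment over all genes, in Python 3.11.15 with scipy 1.17.1. A count of 0 allows up to 0.184 CPM in WT and 0.195 in Exon2KO (3 reads). The members and gene lists were chosen with earlier results of these data known. All 38 members are named, and of other pathway genes those called at 2-fold with at least 100 reads in 1 library, plus Rasgrp1 and Pag1 (2 further genes of the rule are not reported here). Txk, Tec and Nck1 were named after their values were seen. Alternatives covered scaling, read minimum, fold threshold, prior count and assumed spread. The minimum of 1000 reads was chosen after seeing the data.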

Additional observations from a re-analysis of the deposited data

How the results depend on the processing

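No paired analysis was possible because each genotype has 1 library, and for the same reason no library could be left out. Of the 38 members, 1 was called higher and 2 lower at 2-fold. A fold threshold of 1.5 gave 2 higher and 10 lower, as the threshold implies, and an assumed BCV of 0.2 or 0.4 gave 0 and 0. Total counts and scaling to the CD3 chains each left 1 lower call at 2-fold and 6 at 1.5-fold. For the other pathway genes, with 0 called higher and 4 lower, the 1.5-fold threshold gave 2 and 8. An assumed BCV of 0.4 left 1 lower call, as did a minimum of 1000 reads, which tested 33 of these genes. Median log2 ratios by total counts and by scaling to the CD3 chains were -0.15 and -0.10 for surface genes, -0.27 and -0.22 for proximal kinases and -0.32 and -0.27 for adaptors, and the CD3 scaling gave -0.20 for all 38. These shifts follow from the scalings. The sign turned for Zap70 (0.048 by total counts, 0.095 by CD3 scaling), Cblb (0.052 and 0.10), Lat (0.040 by CD3 scaling) and Sh2d2a (0.043 by CD3 scaling). DESeq2 size factors, upper quartile factors, TMM computed after removing haemoglobin, immunoglobulin and mitochondrial genes, and prior counts of 0.5 and 5 changed no direction and no 2-fold call among the 45 genes recomputed. At 1.5-fold, 8 members were called lower with DESeq2 size factors (without Prkcq and Ptpn6) and 9 with upper quartile factors (without Ptpn6). Depth limits Themis most among the members, with 94 and 49 reads.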

Other observations

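Genes that work beside the called members were read after the values of those members were seen. SAP, the product of Sh2d1a, docks on SLAM family receptors. Of 7 receptors of the family that were looked for, 6 were tested, and all 6 had a ratio below 0 (49.7% of all genes tested did). At 2-fold 0 of the 6 were called, against 13.8% of all genes, and at 1.5-fold 3 were called lower, against 10.6%, but all 3 fell short of 1.5-fold by total counts and by scaling to the CD3 chains, as did Slamf7 with DESeq2 size factors (Cd244 was not found under that symbol). Slamf6 had 2275 reads in WT and 1452 in Exon2KO (log2 ratio -0.67, -0.77 to -0.58), Ly9 766 and 506 (-0.62, -0.79 to -0.46) and Slamf7 450 and 304 (-0.59, -0.81 to -0.38). Slamf1, with 2776 and 2823 reads, was at -0.0025 (-0.08 to 0.07) and Cd84 at -0.04 (-0.16 to 0.07), so the receptors of the family did not share 1 level of difference. By total counts, which moves ratios up by 0.106, and by scaling to the CD3 chains, the values of Slamf1 and Cd84 come out above 0, and that of Slamf1 does so too with DESeq2 size factors and upper quartile factors. The median of the 6 was -0.41, against 0.0035 over all genes tested.

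Genes whose proteins are known to be cut by the MALT1 protease had a median log2 ratio of 0.04, beside 1.00 for Malt1. These are RNA levels, and the cutting of the proteins was not measured. Of 7 such genes, 0 were called at 2-fold, against 13.8% of all genes, a list too short to read that count. With TMM, the intervals of Tnfaip3, Rbck1 and Zc3h12a lay below 0 and 0 of the 7 lay above it. By total counts, which moves ratios up by 0.106, the intervals of Relb, Cyld and Rc3h1 come out above 0. Scaling to the CD3 chains also brings that of Rc3h2 above 0, and that of Zc3h12a then includes 0. Tnfaip3, which encodes the NF-kB inhibitor A20, had 25425 and 18152 reads (-0.51, -0.54 to -0.49), Rbck1 had 1641 and 1179 (-0.50, -0.61 to -0.39) and Zc3h12a 1144 and 965 (-0.27, -0.40 to -0.15). Relb had 6091 and 6388 (0.04, -0.01 to 0.09). Cd48, which encodes the ligand of CD2, had 4025 and 3496 reads (-0.23, -0.30 to -0.16), and Alcam, which encodes a ligand of CD6, had 284 and 260 (-0.15, -0.40 to 0.09).

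Transmembrane adaptors of the receptor platform were spread over a wide range. Lax1 was at 0.03 (-0.10 to 0.16), Lat at -0.11, Sit1 at -0.52, Pag1 at -1.01 and Trat1 at -4.02, while Lime1 had 2 and 4 reads, too few for a test.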
